A study of Mus musculus with 2 samples.

Results

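The cells described here, labelled as interstitial macrophages of the mouse lung, carry transcripts of complement component C1q. They were found among cells that had been sorted for retinoid fluorescence, and their place in the tissue was not measured. A cell was kept when it had at least 200 genes and at most 10% of its UMIs (unique molecular identifiers, 1 per captured transcript) on mitochondrial genes. It counted as a C1q cell with at least 10 UMIs over *C1qa*, *C1qb* and *C1qc*, at least 2 over the leukocyte genes *Ptprc*, *Laptm5* and *Cd52*, none of *Cdh5* or *Epcam*, and under 5 over the alveolar macrophage genes *Plet1*, *Krt79*, *Atp6v0d2* and *Fabp1*. Members were thus chosen by their measured values, and 135 of 19622 kept cells passed (0.688%, 95% interval 0.577 to 0.814). In library 1 there were 71 of 9634 (0.737%, 0.576 to 0.929) and in library 2 there were 64 of 9988 (0.641%, 0.494 to 0.818). The cells were then split by the share of UMIs on *Col1a1*, *Col1a2*, *Col3a1*, *Mfap4*, *Dcn* and *Pdgfra*, 6 genes of fibroblasts. Under 0.1% they are called stromal-low C1q cells (44 and 21 in library 1 and library 2), and from 0.1% on stromal-high C1q cells (27 and 43).

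Both libraries came from wild type C57BL/6 mice, male per the paper and aged 3 months, with no treatment. Perfused lungs were digested with pronase and collagenase, and live single cells that emitted at 455 nm under ultraviolet light were sorted and taken to 10x Genomics 3' libraries on 2 occasions. No group differs in genotype or treatment, so the comparisons are between groups of cells within each library, and occasion and library cannot be told apart. How many mice went into a library is not stated, and nothing says that the libraries came from separate mice. With library fitted as a block, p-values measure how far differences between cell groups varied between these 2 libraries. They do not measure a spread between mice.

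C1q is the recognition part of the classical complement pathway: chains encoded by neighbouring genes fold into a bouquet that binds antibody complexes, dying cells and debris. Most plasma proteins of complement are made by hepatocytes, but C1q comes largely from macrophages and dendritic cells. In the lung, interstitial macrophages sit in the tissue around bronchi, vessels and nerves rather than in the airspaces, depend on the growth factor receptor CSF1R, and take up debris, present antigen and release chemokines; kinds rich in LYVE1 and FOLR2 and kinds rich in MHC class II have been described.

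Around the C1q threshold the cells were well spaced. No C1q UMI was found in 9468 and 9756 kept cells of library 1 and library 2, 1 to 4 in 81 and 138, 5 to 9 in 11 and 11, and 10 to 14 in 4 and 4. The cells just outside, with 5 to 9 UMIs and every other step passed, numbered 6 and 6, and C1q cells just inside, with 10 to 14, numbered 3 and 2. Of the other steps, the requirement for no *Cdh5* or *Epcam* UMI took away the most cells, from 73 to 71 in library 1 and from 82 to 64 in library 2, while the alveolar step removed none. A *Plet1*, *Krt79*, *Atp6v0d2* or *Fabp1* UMI occurred in 2 and 2 C1q cells. The stromal split also fell in a sparse range: 2 and 0 cells lay at 0.05% to under 0.1%, 3 and 3 at 0.1% to under 0.2%, and 34 and 17 cells had no UMI of the 6 genes. The stromal-high share of the C1q cells was 38.0% (26.8 to 50.3) in library 1 and 67.2% (54.3 to 78.4) in library 2. The libraries share 23 barcodes, of which 0 are C1q cells.

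The stromal-low cells had a median of 3690 UMIs in library 1 (756 to 7593) and 6679 in library 2 (1469 to 10242), with 1229 and 1959 genes. C1q transcripts took up a median of 2.40% and 1.92% of their UMIs, 86.5 and 121 UMIs per cell, and UMIs of each of *C1qa*, *C1qb* and *C1qc* were present in all 44 and all 21 cells. Stromal-high cells had medians of 10130 and 15869 UMIs and a C1q share of 0.701% and 0.597%, and again all 27 and all 43 cells held each of the 3 transcripts. In a fibroblast reference of 5221 and 4782 cells, with at least 0.5% stromal UMIs and medians of 4265 and 7668 UMIs, 48 (0.919%) and 65 (1.36%) had any C1q UMI. These cells were chosen for having no leukocyte UMI, so their shares do not measure the background in full, here and below. The scatter plot sets out the C1q share against the stromal share of every C1q cell, with the split drawn as a dashed line; the stromal-low cells form a column at or near 0, and the stromal-high cells lie lower and to the right.

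**Figure D1:**
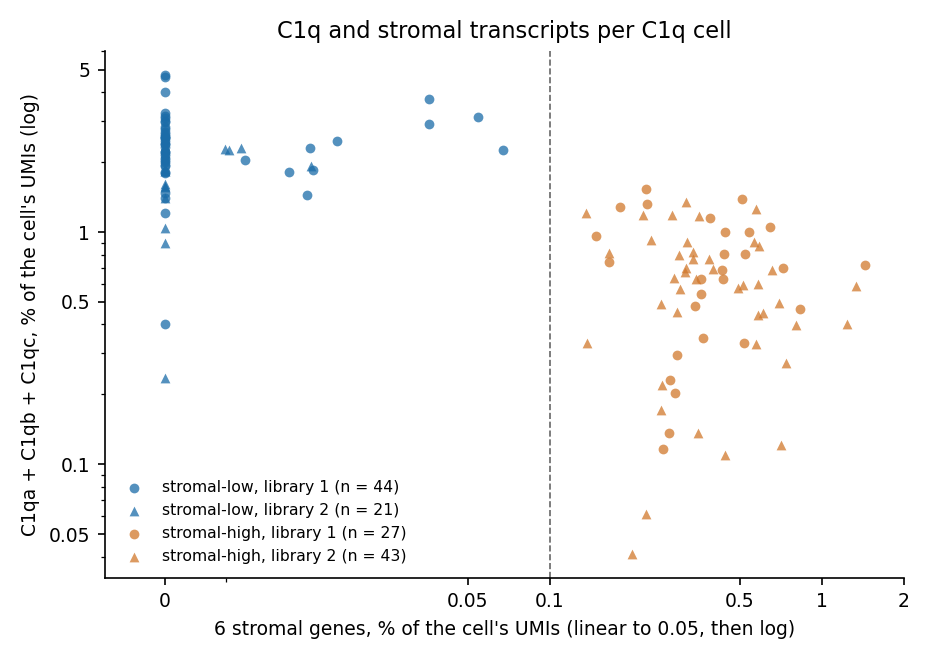
Share of each C1q cell's UMIs on *C1qa*, *C1qb* and *C1qc* against its share on the 6 stromal genes of the split. Circles are library 1 and triangles library 2; the dashed line is the 0.1% split.

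Because the 3 chains had nearly the same ratio between the stromal-high and stromal-low cells, their genes and promoters are shown. As UMIs per 1000000 UMIs of the summed cells (CPM), in the stromal-low group, *C1qa* (the A chain) stood at 8852 and 6600 in library 1 and library 2, *C1qb* (B chain) at 8888 and 7075, and *C1qc* (C chain) at 5544 and 4321. In the stromal-high cells they were 2733 and 2126, 2777 and 2216, and 1618 and 1335. The ratio of stromal-high to stromal-low CPM was close for the 3 genes, at 0.309 and 0.322 for *C1qa*, 0.312 and 0.313 for *C1qb*, and 0.292 and 0.309 for *C1qc*; as genes of the rule they are given as a description only. All 3 lie on the minus strand of chromosome 4 within a short stretch (GRCm38), *C1qb* at chr4:136880129-136886187, *C1qc* at chr4:136889804-136893065 and *C1qa* at chr4:136895917-136898803. RefSeq promoters (GRCm38.p6, 250 bases before to 50 after the RefSeq gene start) were given for *C1qb* (chr4:136886151-136886450, minus strand) and *C1qc* (chr4:136892865-136893164, minus strand), that is for 2 of the 3 genes; the RefSeq starts are not those of the stretches above, with 13 bases between them for *C1qb* and 151 for *C1qc*. They are printed 5′ to 3′ with matches in capitals. TGCTGA, a core that MAF factors bind, and GAGGAA, a site of the kind PU.1 binds, were searched on both strands; c-MAF and PU.1 shape macrophages, and their transcripts are described below.
C1qb: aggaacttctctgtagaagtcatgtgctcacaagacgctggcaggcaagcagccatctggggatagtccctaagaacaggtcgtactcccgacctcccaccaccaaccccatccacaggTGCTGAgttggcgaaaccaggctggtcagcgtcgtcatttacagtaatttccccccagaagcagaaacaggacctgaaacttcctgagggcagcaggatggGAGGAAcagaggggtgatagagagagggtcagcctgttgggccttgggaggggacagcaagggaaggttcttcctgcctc
C1qc: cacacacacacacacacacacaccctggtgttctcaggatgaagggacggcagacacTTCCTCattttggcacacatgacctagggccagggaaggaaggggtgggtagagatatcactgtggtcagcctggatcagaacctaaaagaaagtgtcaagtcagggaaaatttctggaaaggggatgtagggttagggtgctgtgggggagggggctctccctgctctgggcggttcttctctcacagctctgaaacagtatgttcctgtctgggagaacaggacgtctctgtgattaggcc
The *C1qb* promoter held TGCTGA from base 120 and GAGGAA from base 221, and the *C1qc* promoter held GAGGAA on the opposite strand, read as TTCCTC, from base 58. Of 32544 promoters of this length, 19.5% held TGCTGA, 28.1% held GAGGAA and 5.38% held both, so each match is a description of common letters.

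For comparison, 2 other leukocyte gates were taken from the same libraries, each with under 10 C1q UMIs and under 0.1% stromal UMIs. The monocyte gate (77 and 55 cells) had at least 5 UMIs over *Ms4a6c*, *Ifitm6* and *Gngt2*, and the dendritic gate (23 and 63 cells) at least 3 over *Flt3*, *Xcr1*, *Clec9a*, *Cd209a*, *Ccr7*, *Fscn1* and *Zbtb46*. The dendritic gate also held lymphoid transcripts, with *Cd79a* of B cells at 690 and 577 CPM in 4 and 18 cells and *Cd3d* of T cells at 0 and 216 CPM; a version without cells holding 2 or more lymphoid UMIs (19 and 30 cells), chosen after the data were seen, was run beside it, and the dendritic values below are those of the mixed gate. The 10 genes furthest above the C1q cells in that gate were B cell or other lymphoid genes, led by *Cd79a*, *Ly6d* and *Igkc*, so it is called a gate and not a cell type. An alveolar macrophage gate held only 1 and 4 cells, so no comparison with it was made. Both tested comparisons share the stromal-low sums. Of 4997 genes outside the gates, 396 were higher in stromal-low C1q cells than in monocytes (7.92%) and 368 lower (7.36%), 764 in all (15.3%), with a median log2 fold change of -0.04 over all genes tested. Against the dendritic gate 293 were higher (5.86%) and 244 lower (4.88%), 537 in all (10.7%), with a median of -0.05. The counts depended on the settings: with DESeq2 they were 268 and 179 against monocytes and 198 and 121 against the dendritic gate, without the library block 235 and 202, and 156 and 77, and with no stromal limit on the comparators the dendritic counts were 506 and 620. At a split of 0.2% the genes lower than in the dendritic gate numbered 133. With the lymphoid cells left out of the dendritic gate the counts were 254 and 190, and 378 of the 537 calls were made again. Of 90 calls on listed genes 6 were then lost and 1, *Ighm* of B cells, turned from lower to higher.

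The label was first checked against its markers. *Mrc1*, the mannose receptor for sugar-coated particles, was at 458 and 496 CPM in the stromal-low cells of library 1 and library 2, 9.86 and 3.16 in the monocyte gate and 154 and 79.8 in the dendritic gate. The libraries of the 3 groups did not overlap, which with 2 libraries each is a description. Over monocytes the log2 fold change was 6.32, with both libraries in that direction and 73.3-fold by mean CPM. Its standard error was 0.50 (edgeR's quasi-likelihood test with Benjamini-Hochberg adjusted p 1.5e-09). Mean *Mrc1* was 4.08-fold over the dendritic gate, both libraries higher (log2 2.14, standard error 0.35, edgeR's quasi-likelihood test with Benjamini-Hochberg adjusted p 9.0e-05). An *Mrc1* UMI was seen in 26 of 44 (59.1%) and 16 of 21 (76.2%) stromal-low cells and in 55.6% and 65.1% of stromal-high cells, against 0.0958% and 0.293% of fibroblasts. *Csf1r*, the receptor for the growth factor M-CSF, was in 41 of 44 (93.2%) and 20 of 21 (95.2%) stromal-low cells, 81.5% and 86.1% of stromal-high cells, and 0.0958% and 0.188% of fibroblasts. Depth differed between these groups, and after thinning every cell to 2000 UMIs, with 2 and 1 shallower stromal-low cells left out, the *Csf1r* shares were 64.3% and 55.0% in stromal-low and 37.0% and 32.6% in stromal-high cells. The same thinning left *Mrc1* in 42.9% and 50% of stromal-low and 22.2% and 11.6% of stromal-high cells. At the thinned depth both receptors were thus found in more of the stromal-low cells.

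The level of *Csf1r* set the C1q cells apart from the dendritic gate more than from monocytes. It was at 705 and 713 CPM in stromal-low cells, 440 and 508 in monocytes and 95.4 and 37.6 in the dendritic gate. Mean *Csf1r* was 10.7-fold over the dendritic gate, both libraries higher (log2 3.64, standard error 0.35, edgeR's quasi-likelihood test with Benjamini-Hochberg adjusted p 6.1e-08). Against monocytes it was 1.5-fold (log2 0.79, standard error 0.27, edgeR's quasi-likelihood test with Benjamini-Hochberg adjusted p 0.045, both libraries), and that call was lost with DESeq2, with no low-count filter, without the block and at a split of 0.2%. *Cx3cr1*, the fractalkine receptor of tissue macrophages and patrolling monocytes, was at 548 and 524 CPM, against 253 and 227 in monocytes and 44.0 and 14.1 in the dendritic gate. *Ms4a7*, a membrane gene used as a macrophage marker, was at 572 and 552 CPM, against 9.86 and 0 in monocytes and 0 and 0 in the dendritic gate, which is 114-fold over monocytes and at least 105-fold over the dendritic gate. Neither gene's stromal-low libraries overlapped those of another gate. With 2 libraries per group this is a description, as the share of all genes without overlap is not given.

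Taken as a list of 13 macrophage markers outside the rule, all 13 passed the filter on low counts, and 13 were higher in stromal-low C1q cells than in monocytes (median log2 fold change 2.23). Against the dendritic gate 13 were higher too (median 4.46, or 4.04 with genes at 0 counts in the dendritic gate set to their lower bound). *Apoe*, which carries lipid out of cells, was the most abundant of the list by CPM, at 23350 and 18024, against 3179 and 2240 in monocytes and 411 and 200 in the dendritic gate. Mean *Apoe* was 7.63-fold over monocytes, both libraries higher (log2 3.15, standard error 0.19, edgeR's quasi-likelihood test with Benjamini-Hochberg adjusted p 1.1e-11). Over the dendritic gate the mean was 67.8-fold. *Apoe* is not confined to macrophages in these libraries, since the fibroblast reference had 5884 and 5450 CPM. The weakest marker was *Mertk*, a receptor for dying cells, with UMIs in 1 and 8 stromal-low cells (12.1 and 90.9 CPM), 0 in both other gates and 21.4 and 72.1 CPM in fibroblasts. *Ms4a7* and *C5ar1* were at 0 in the dendritic gate as well, so the counts of 13 are a description. In that sense the markers matched the label, with *Mertk* thinly covered.

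Marker lists of other lung cells were low in the stromal-low cells. Of 12 alveolar macrophage markers 5 and 6 were detected, summing to 114 and 105 CPM, most of it *Itgax* (60.3 and 62.9), and *Siglecf*, *Chil3* and *Ear1* were at 0 in both libraries. Of 14 monocyte markers 7 and 7 were detected, at 470 and 566 CPM in sum, with *Ly6c2*, *Vcan*, *Chil3*, *Ace*, *Cd300e* and *Eno3* at 0 and *Ccr2* in library 1 (187) and *Nr4a1* in library 2 (182) the most abundant. Dendritic markers summed to 169 and 168 CPM, with *Cd209a* the most abundant (78.3 and 62.9, from 3 cells and 1 cell) and *Xcr1*, *Ccr7*, *Zbtb46* and *Itgae* at 0, and 2 and 2 stromal-low cells would have passed the dendritic threshold of 3 UMIs. Several genes that define each neighbouring cell type were thus at 0, but *Ccr2*, *Nr4a1* and *F13a1* (151 and 161) of the monocyte list were not. T cell, NK cell and vessel genes were sparser still. T cell markers summed to 0 and 21.0 CPM, all of it *Cd4*, NK cell and red cell markers to 0 and 0, and endothelial markers to 0 and 14. Neutrophil markers summed to 54.2 and 35 CPM, mostly *Mmp9* (30.1 and 28.0), with *S100a8* and *S100a9* at 0. B cell markers summed to 211 and 133 CPM, nearly all *Ighm* (199 and 119), an antibody chain that was at 108 and 107 in the monocyte gate and 0.257 and 0.222 in fibroblasts, with *Cd79a* and *Ms4a1* at 0. Type 2 cell markers summed to 440 and 83.9 CPM, mostly *Sftpc* (356 and 69.9), beside 472 and 172 CPM in the fibroblast reference, and club cell *Scgb1a1* was at 30.1 and 48.9 CPM beside 28.5 and 32.2. The plot of marker lists gives these sums for both kinds of C1q cell and the fibroblasts, with stromal genes on its lowest line. In the stromal-high cells T cell markers summed to 33.2 and 62.9 CPM.

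**Figure D2:**
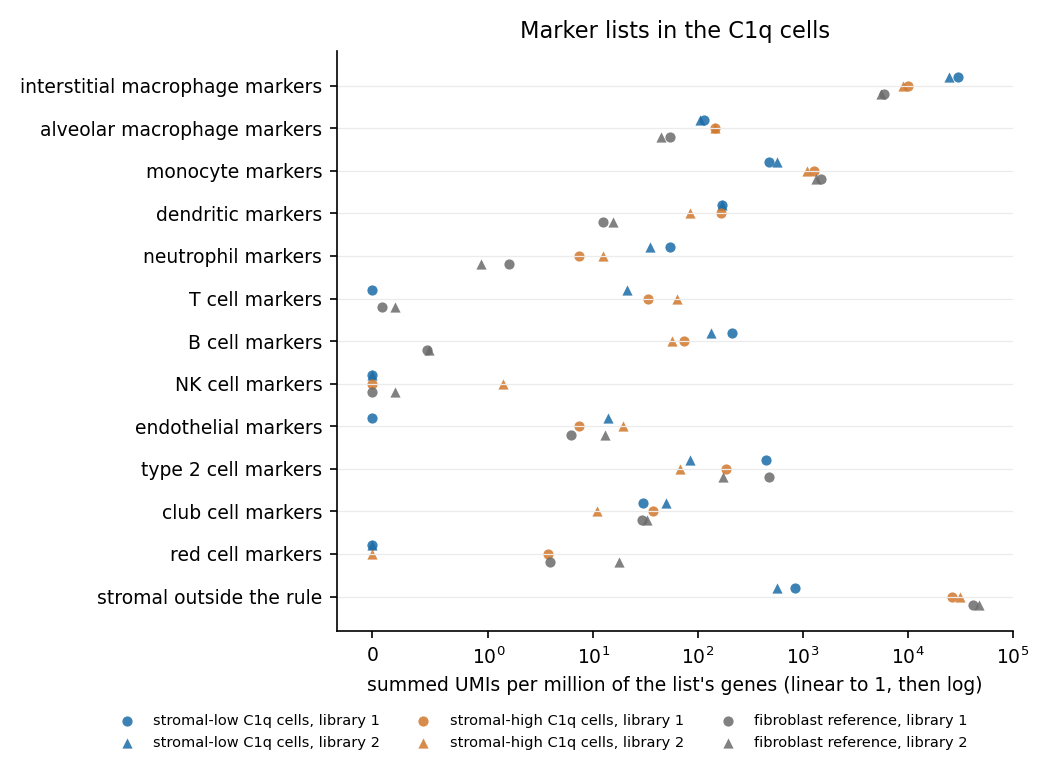
Summed CPM of each marker list in stromal-low C1q cells, stromal-high C1q cells and the fibroblast reference. Circles are library 1 and triangles library 2; the axis is linear up to 1 and logarithmic above.

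Monocyte genes were next. Of 14 monocyte markers 13 passed the filter and 11 were lower in stromal-low C1q cells than in the monocyte gate (median -6.25, or -4.60 with genes at 0 set to their bound), and 0 were higher. Of the 13, *Ly6c2*, *Chil3*, *Ace*, *Cd300e* and *Eno3* had 0 UMIs in the stromal-low cells, so their differences are bounds and the count is a description; their calls were made again with no filter on low counts. *Ace*, an enzyme of patrolling monocytes, had 0 UMIs in both libraries of stromal-low cells and 391 and 694 CPM in monocytes. Its mean was at least 55.9-fold lower, both libraries in that direction (edgeR's quasi-likelihood test with Benjamini-Hochberg adjusted p 5.2e-09). *Plac8*, another monocyte gene, was at 6.03 and 55.9 CPM against 2465 and 2755, which is 84.3-fold lower. *Ly6c2*, the surface marker of inflammatory monocytes, had 0 UMIs against 440 and 145 CPM, at least 30.2-fold lower. DESeq2 did not make that call, nor the one for *Chil3*. The exceptions were *F13a1*, the clotting factor chain also made by resident macrophages, at 151 and 161 CPM against 296 and 66.3, and *Ccr2*, the receptor that draws monocytes into tissue, at 187 and 147 against 381 and 240. Neither passed the test (adjusted p 0.92 and 0.15 in edgeR's quasi-likelihood test with Benjamini-Hochberg adjustment; log2 0.13 with 1 of 2 libraries in that direction, and -0.67 with 2 of 2).

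Receptors for complement fragments and antibodies came next. Outside the C1q genes the complement list had 9 genes, of which 4 were higher and 2 lower than in monocytes (median 1.20), and 4 higher and 0 lower than in the dendritic gate (median 2.37). *C3ar1*, the receptor for the C3a fragment, was at 223 and 203 CPM, in 22 and 15 cells, against 0 and 0 in monocytes and 7.34 and 4.69 in the dendritic gate. By mean CPM it was at least 44.1-fold over monocytes. Over the dendritic gate it was 35.4-fold, both libraries higher (log2 5.05, standard error 0.59, edgeR's quasi-likelihood test with Benjamini-Hochberg adjusted p 1.2e-06). *C5ar1*, the receptor for C5a, was at 277 and 238 CPM against 29.6 and 69.4 in monocytes and 0 and 0 in the dendritic gate. Its difference was 5.2-fold over monocytes and at least 48.3-fold over the dendritic gate, so the receptors for both fragments stood above either gate, and their calls were made again with no filter on low counts.

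Complement proteins and the receptor chain CD11b behaved otherwise. *Cfp*, properdin, which steadies the alternative pathway's enzyme, was at 169 and 83.9 CPM against 26.3 and 63.1 in monocytes (2.83-fold), a call lost with DESeq2 and without the block. *C3*, the central protein of the cascade, was lower in stromal-low cells, at 42.2 and 35 CPM against 118 and 107, and that call was lost with DESeq2, without the block and at splits of 0.05% and 0.2%. *Itgam*, a chain of complement receptor 3, was 3.92-fold lower than in monocytes, at 36.2 and 97.9 CPM against 263 and 262. Beside the dendritic gate *C3* went the other way (7.34 and 7.04 CPM there), a call lost with DESeq2 and of opposite direction at a split of 0.2% and with no stromal limit, and *Itgam* did not pass (103 and 72.8). So the direction for *C3* depended on the comparator and on the stromal limit.

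Of 5 genes for receptors of antibody constant regions, 3 were higher and 1 lower than in monocytes (median 1.31), and 4 were higher than in the dendritic gate (median 3.21). *Fcgr1*, the high-affinity IgG receptor, was at 175 and 182 CPM against 52.6 and 34.7 in monocytes and 7.34 and 7.04 in the dendritic gate. *Fcgr3*, an activating low-affinity receptor, was at 512 and 608 CPM against 283 and 196 in monocytes and 58.7 and 58.7 in the dendritic gate. Its mean was 9.55-fold over the dendritic gate, both libraries higher (log2 3.21, standard error 0.33, edgeR's quasi-likelihood test with Benjamini-Hochberg adjusted p 1.6e-07). *Fcgr4*, the activating receptor of patrolling monocytes, was at 18.1 and 41.9 CPM against 164 and 192, lower than in monocytes, a call lost with DESeq2. *Fcgr2b*, the inhibitory receptor, was at 289 and 301 CPM, 2.14-fold over monocytes (108 and 167) and near the level of the mixed dendritic gate (308 and 230). As a group the C1q cells thus had both the high-affinity and the inhibitory receptor above the monocyte level.

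Genes for taking up dead cells followed. Of 12 such genes 11 passed the filter, and 7 were higher and 0 lower than in monocytes (median 3.17), with 9 higher than in the dendritic gate (median 3.82, or 3.27 with bounds). *Stab1*, a scavenger receptor that binds phosphatidylserine, was at 163 and 301 CPM against 3.29 and 0 in monocytes and 7.34 and 2.35 in the dendritic gate. *Trem2*, a lipid-sensing receptor, was at 542 and 308 CPM against 85.5 and 25.2 in monocytes and 22 and 0 in the dendritic gate. Mean *Trem2* was 7.68-fold over monocytes, both libraries higher (log2 3.17, standard error 0.43, edgeR's quasi-likelihood test with Benjamini-Hochberg adjusted p 5.2e-06). *Axl*, a kinase that binds dying cells through GAS6, was at 102 and 147 CPM against 3.29 and 18.9 in monocytes (11.2-fold). *Gas6*, the bridging ligand, was at 127 and 62.9 CPM in 9 and 3 cells against 3.29 and 6.31, but fibroblasts had 368 and 368 CPM and with no stromal limit the call was lost against monocytes and turned direction against the dendritic gate. Several uptake receptors were thus higher by either comparison, but the scavenger receptor gene *Msr1* passed in neither and *Cd36* not against monocytes, and the ligand's level was not theirs alone.

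A further list held genes of long-lived resident macrophages. Of its 11 genes 8 passed the filter, 7 were higher than in monocytes (median 6.97, or 4.75 with genes at 0 set to their bound) and 8 higher than in the dendritic gate (median 5.38, or 5.05). Of the 8, *Folr2*, *Ccl8* and *Igf1* had 0 UMIs in monocytes and *Pf4* had 2, so these genes passed the filter through the C1q cells and the count is a description; their calls were made again with no filter on low counts. *Pf4*, the chemokine CXCL4, was at 2748 and 1601 CPM, in 33 and 15 cells, against 3.29 and 3.16 in monocytes, where each library held 1 UMI, and 0 and 0 in the dendritic gate. The log2 fold change over monocytes was 9.41 (standard error 0.46, both libraries, edgeR's quasi-likelihood test with Benjamini-Hochberg adjusted p 2.7e-13), and over the dendritic gate the level was at least 408-fold higher. *Folr2*, a folate receptor, was at 211 and 105 CPM in 12 and 6 cells and at 0 in both other gates, at least 32.7-fold over monocytes. *Cd163*, which clears haemoglobin bound to haptoglobin, was at 66.3 and 294 CPM in 6 and 5 cells. *Selenop*, a secreted selenium carrier, was at 1428 and 1356 CPM against 178 and 97.8 in monocytes and 88.0 and 63.4 in the dendritic gate, 10.1-fold and 18.4-fold. *Lyve1*, a hyaluronan receptor, was found in 4 and 1 cells and *Timd4*, a phosphatidylserine receptor, in none of 44 and none of 21 (upper limits 8.04% and 16.1% on the share with a UMI at this depth). *Selenop* was in 38 of 44 and 21 of 21 cells, but also in 78.8% and 93.3% of fibroblasts (510 and 553 CPM), and UMIs of the surface receptors were detected in a minority.

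That minority was looked at cell by cell. Stromal-low cells with 2 or more UMIs over *Lyve1*, *Folr2*, *Cd163* and *Timd4* numbered 11 and 5, cells with 1 UMI 4 and 1, and cells with none 29 and 15, so with 5 cells in a library no test was run. The 7 MHC class II genes, which load and present peptides, took a median of 1.31% and 2.78% of UMIs in the cells with 2 or more and 9.41% and 6.89% in the cells with none. *Apoe* took 4.60% and 4.14% against 0.741% and 0.563%. C1q shares were nearer to each other, at 2.71% and 2.27% against 2.22% and 1.84%, while the positive cells were deeper (4169 and 8931 UMIs against 3572 and 5924), and depth itself affects who reaches 2 UMIs; its part was not tested. In the plot of MHC class II against *Apoe*, the receptor-positive cells lie mostly at the bottom and to the right and the negative cells at the top left, with cells between them in both libraries, so the pattern is a range rather than 2 separate clouds.

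**Figure D3:**
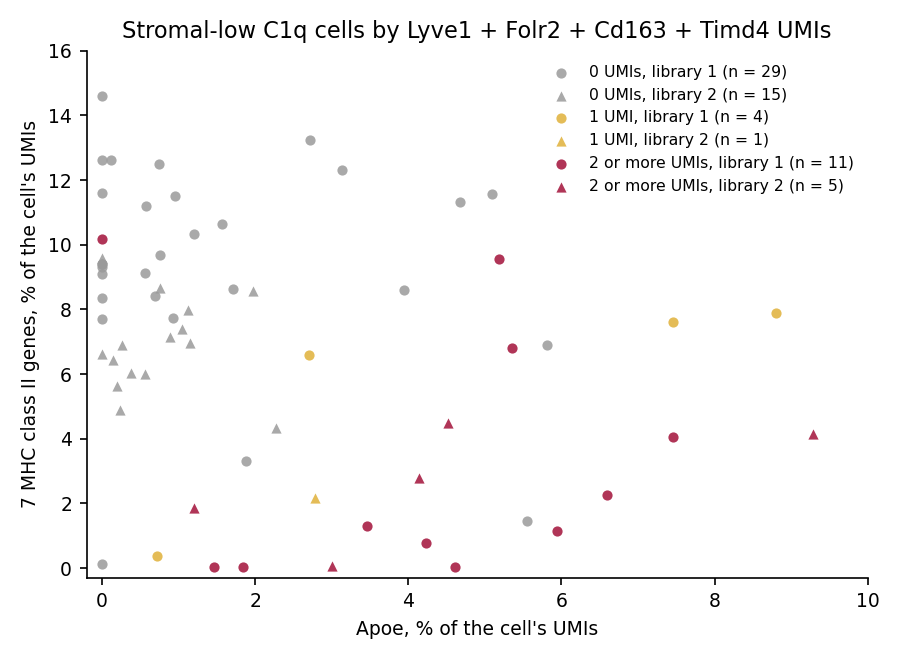
Share of each stromal-low C1q cell's UMIs on 7 MHC class II genes against its share on *Apoe*, coloured by its UMIs over *Lyve1*, *Folr2*, *Cd163* and *Timd4*. Circles are library 1 and triangles library 2.

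Summed levels showed what else went with the receptor genes. *Mrc1* was at 936 and 1298 CPM in the receptor-positive cells and 184 and 128 in the negative cells, and *Csf1r* at 1136 and 1153 against 470 and 460. *Maf*, a transcription factor of resident macrophages, was at 446 and 1033 CPM against 55.3 and 42.8, and *Pf4* at 6372 and 4061 against 1051 and 385. The supply side of uptake and lipid export moved the same way, with *Gas6* at 379 and 192 CPM against 9.22 and 10.7 and *Abca1*, a cholesterol exporter, at 423 and 216 against 36.9 and 32.1. The opposite direction held *Cd74*, the MHC class II chaperone (14971 and 9780 CPM against 44578 and 31112), and *Cd9*, a tetraspanin (44.6 and 72.1 against 433 and 632). Among genes of the MHC-high kind, 2 were absent from the positive cells: *Cd72*, an inhibitory lectin, was at 0 and 0 CPM against 212 and 171, and *Mmp12*, an elastase, at 0 and 0 against 350 and 332. *Cx3cr1* of the same list was not, at 624 and 505 against 433 and 460. *Cxcl2* held no direction, at 4478 and 1682 CPM against 1374 and 6060. Nor did the sum of the cytokine list, at 16820 and 5863 against 6612 and 10492, while the chemokine *Pf4*, given above, is not on that list. With 16 positive cells in all, these are levels without a test.

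Over all stromal-low cells MHC class II genes stood near their level in the dendritic gate. Of its 7 genes 6 were higher than in monocytes (median 2.95) and 0 passed the test against the dendritic gate (median 0.24). *Cd74* was at 34914 and 23862 CPM, against 3146 and 5175 in monocytes and 30622 and 17261 in the dendritic gate, and *H2-Aa*, an MHC class II chain, at 11521 and 8830 against 654 and 1679, and 10491 and 6229. Mean *H2-Aa* was 8.72-fold over monocytes, both libraries higher (log2 3.30, standard error 0.31, edgeR's quasi-likelihood test with Benjamini-Hochberg adjusted p 2.3e-08). Against the dendritic gate *H2-Aa* gave log2 0.26 with a standard error of 0.28, both libraries in that direction (edgeR's quasi-likelihood test with Benjamini-Hochberg adjusted p 0.68), which does not show that the levels were equal. *Ciita*, the switch for these genes, was low everywhere, at 48.2 and 55.9 CPM against 16.4 and 31.6 in monocytes, and did not pass. *Mmp12* was at 229 and 217 CPM in 13 and 8 cells against 0 and 0 in monocytes and 44.0 and 11.7 in the dendritic gate, and *Cd72* at 145 and 126 against 0 and 3.16 in monocytes. MHC class II genes thus separated the C1q cells from the monocyte gate and, by this test, not from the mixed dendritic gate. An *H2-Aa* UMI was seen in 100% and 71.4% of that gate's cells in library 1 and library 2.

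Among 14 transcription factor genes 12 passed the filter, of which 2 were higher and 5 lower than in monocytes (median -0.53), and 4 higher and 2 lower than in the dendritic gate (median 0.85). *Maf* was at 193 and 378 CPM against 55.9 and 41.0 in monocytes and 0 and 7.04 in the dendritic gate. Its mean was 5.89-fold over monocytes, both libraries higher (log2 2.70, standard error 0.38, edgeR's quasi-likelihood test with Benjamini-Hochberg adjusted p 1.2e-05). *Spi1*, which encodes PU.1, was lower than in monocytes, at 343 and 447 CPM against 812 and 754, and near the dendritic 323 and 221; the monocyte call was lost in 5 settings, DESeq2 and the version without the block among them. *Cebpb*, a factor of monocytes and inflammation, lay between the gates at 271 and 755 CPM, 4.28-fold under monocytes (1598 and 2796) and 8.77-fold over the dendritic gate (51.4 and 65.7). *Bhlhe40*, a repressor, was at 18.1 and 6.99 CPM against 403 and 279 in the dendritic gate. So *Maf* stood above both gates, and the other factors named here did not.

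Chemokine and cytokine transcripts were carried as well. Of 18 genes 16 passed the filter, 9 were higher and 2 lower than in monocytes (median 3.13, or 2.10 with bounds), and 8 were higher than in the dendritic gate (median 1.46). Of the 9, *Ccl7*, *Ccl12*, *Cxcl1* and *Il1a* had 0 UMIs in monocytes, and *Ccl7* and *Cxcl1* in the dendritic gate too, so they passed the filter through other groups and the counts are a description. *Cxcl2*, which draws neutrophils, was at 2290 and 4523 CPM against 375 and 34.7 in monocytes and 330 and 18.8 in the dendritic gate. Its mean was 16.6-fold over monocytes, both libraries higher (log2 4.63, standard error 0.65, edgeR's quasi-likelihood test with Benjamini-Hochberg adjusted p 9.7e-06). In library 1, 1 cell held 70.2% of the monocyte gate's *Cxcl2* UMIs. *Ccl2*, which draws monocytes through CCR2, was at 1549 and 322 CPM in 27 and 11 cells against 72.3 and 6.31 in monocytes and 609 and 79.8 in the dendritic gate. *Ccl12*, another CCR2 ligand, was at 1103 and 454 CPM in 17 and 9 cells and at 0 in monocytes, at least 161-fold. *Ccl7*, a further ligand of that receptor, was at 1452 and 203 CPM in 19 and 6 cells and at 0 in both gates, but 1 cell held 69.0% of its UMIs in library 2. *Cxcl13*, which draws B cells, came from 7 and 2 cells (1000 and 210 CPM), and its call was lost with DESeq2. *Tnf* was at 193 and 105 CPM against 3.29 and 6.31 in monocytes (31.0-fold), while *Il1b* did not pass the test, at 717 and 951 against 1065 and 779. *Ccl6* was lower than in monocytes, at 235 and 385 CPM against 792 and 902. Ligands that recruit monocytes were thus carried by the cells that had little of most monocyte genes themselves.

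**Figure D4:**
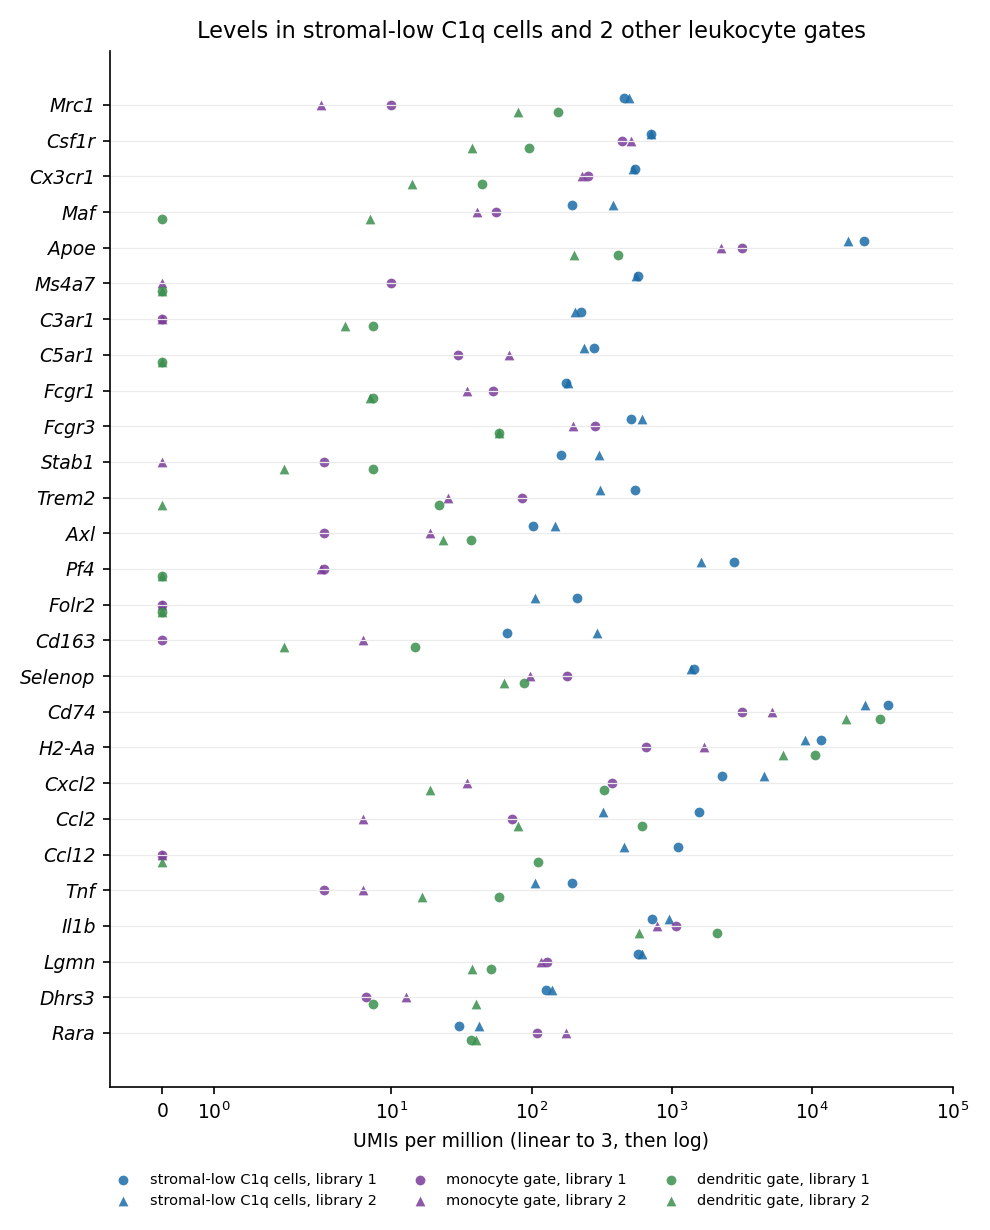
CPM of 27 genes in stromal-low C1q cells, the monocyte gate and the dendritic gate. Circles are library 1 and triangles library 2; the axis is linear up to 3 and logarithmic above.

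The plot of 27 genes sets these levels side by side, and its chemokine lines show how far apart the libraries lay. Between the libraries *Ccl7* and *Ccl2* of stromal-low cells had library 2 to library 1 ratios of 0.140 and 0.208, among the 5 lowest of 595 genes with at least 200 CPM on average, beside *Gm10076* (0.180), *Sftpc* (0.197) and *Cxcl13* (0.210). At the other end stood *Vcam1*, an adhesion molecule (5.48), *Rhob* (4.24), *Neat1* (3.89), *Ier2* (3.72) and *Fos* (3.62). Early response and heat shock genes, which switch on soon after a stimulus, were counted as 1 list: of 13 genes 12 passed the filter and 12 were higher than in monocytes (median 1.71), with 6 higher than in the dendritic gate (median 0.78), of which *Egr1* and *Jun* turned direction with no stromal limit and lost their calls with DESeq2, without the block and at a split of 0.2%. The list summed to 10599 and 21771 CPM in stromal-low cells and 24821 and 17537 in fibroblasts. *Egr1* was at 554 and 1349 CPM against 9.86 and 94.7 in monocytes. *Fos* was at 1350 and 4880 CPM against 513 and 1616, and lost its call with no stromal limit and without the block. *Ier2* was at 349 and 1300 CPM against 398 and 492, so library 1 alone had the opposite direction (log2 -0.19), and its call was lost in 4 settings. So some chemokine and early genes were among those in which the libraries lay furthest apart.

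Lysosomal genes, which break down what has been eaten, numbered 16, all past the filter, with 10 higher and 1 lower than in monocytes (median 1.03) and 13 higher than in the dendritic gate (median 2.11). *Lgmn*, a protease, was at 572 and 608 CPM against 128 and 117 in monocytes and 51.4 and 37.6 in the dendritic gate. By mean CPM it was 4.82-fold over monocytes, both libraries higher (log2 2.47, standard error 0.28, edgeR's quasi-likelihood test with Benjamini-Hochberg adjusted p 4.0e-07). *Psap*, the saposin precursor, was the 1 gene lower than in monocytes (1109 and 1035 against 2166 and 2114), lost with a C1q threshold of 5 UMIs, with no stromal limit and without the block. Of 6 iron genes 4 passed, 2 were higher than in monocytes and 4 higher than in the dendritic gate. *Fth1*, the ferritin heavy chain that stores iron, was at 15330 and 11829 CPM against 6565 and 3881 in monocytes and 7263 and 4535 in the dendritic gate. *Col14a1*, a collagen gene, was among the genes furthest above the dendritic gate (163 and 203 CPM against 0 and 0), though fibroblasts had 107 and 98.5 CPM. Lysosomal genes were thus mostly higher in the C1q cells by either comparison, though *Ctsl*, a protease counted as higher in both, turned direction in both with no stromal limit.

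Because the sort was on retinoid fluorescence, retinoid genes were read in both kinds of C1q cell. Only 7 of 21 passed the filter, with 1 higher and 1 lower than in monocytes (median -0.33) and 1 higher than in the dendritic gate (median -0.26). *Dhrs3*, which reduces retinal to retinol, was at 127 and 140 CPM in 15 and 11 stromal-low cells, against 6.57 and 12.6 in monocytes, 7.34 and 39.9 in the dendritic gate and 99.8 and 75.5 in fibroblasts. By mean CPM it was 13.9-fold over monocytes, both libraries higher (log2 3.96, standard error 0.55, edgeR's quasi-likelihood test with Benjamini-Hochberg adjusted p 9.2e-06). *Rara*, a retinoic acid receptor, was lower than in monocytes, at 30.1 and 41.9 CPM against 108 and 177, a call lost with DESeq2. *Lrat*, which esterifies retinol for storage, had UMIs in 1 of 44 and 0 of 21 stromal-low cells (upper limit 16.1% in library 2), 77.8% and 55.8% of stromal-high cells, and 58.8% and 47.5% of fibroblasts. At 2000 UMIs per cell *Lrat* was in 0% and 0% of stromal-low, 22.2% and 16.3% of stromal-high cells and 40.4% and 21.5% of fibroblasts. *Lrat* thus followed the stromal split, and *Dhrs3* did not.

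Lipid handling genes, read because retinoid is stored in lipid droplets, were mixed: of 17 genes 12 passed, 3 were higher and 2 lower than in monocytes (median -0.16), and 3 higher than in the dendritic gate (median 0.87). *Abca1* was at 145 and 83.9 CPM against 6.57 and 12.6 in monocytes (11.9-fold) and 0 and 25.8 in the dendritic gate (8.85-fold), where the dendritic call was lost at a split of 0.2%. *Plin2*, which coats lipid droplets, was at 169 and 273 CPM, 3.28-fold over the dendritic gate (73.4 and 61.0), and did not pass against monocytes (358 and 293). *Scarb1*, the receptor for high-density lipoprotein, was at 0 and 21.0 CPM against 88.8 and 120 in monocytes, lower by the test but not with DESeq2. So *Abca1* was higher and *Scarb1* lower than in monocytes.

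The stromal-high cells carried stromal genes well beyond the 6 of the split. For 20 further fibroblast genes their CPM was a median of 0.576 of the fibroblast level in library 1 (0.422 for *Tbx2* to 0.711 for *Mgp*) and 0.611 in library 2 (0.487 for *Ptgis* to 0.801 for *Lrat*). The 6 split genes had 0.543 and 0.594, from 0.258 and 0.429 for *Dcn* to 0.595 and 0.687 for *Col3a1*, and the stromal-low cells a median of only 0.0116 and 0.00896 over the 20 genes. *Inmt*, a methyltransferase of lung fibroblasts, was at 3649 and 3581 CPM in stromal-high, 133 and 62.9 in stromal-low cells and 6736 and 6007 in fibroblasts. *Tcf21*, a fibroblast transcription factor, was at 458 and 347 CPM, against 0 and 6.99, and 911 and 647. *Itga8*, an integrin chain, was at 443 and 419 CPM, against 0 and 0, and 694 and 819. All 20 further genes thus stood under the fibroblast level and far above the stromal-low level in both libraries.

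Macrophage genes were scaled down in the same cells. For genes under 5 CPM in fibroblasts and at least 50 CPM in stromal-low cells, the ratio of stromal-high to stromal-low CPM had a median, with the C1q genes left out, of 0.261 in library 1 (8 genes, 0.2 for *C5ar1* to 0.430 for *Aif1*) and 0.282 in library 2 (9 genes, 0.143 for *Fcgr1* to 0.361 for *Ms4a7*). Without the limit in stromal-low cells, a version chosen after the data were seen, the same 8 and 9 genes were left. *Mrc1* was at 96.0 and 157 CPM, *Csf1r* at 151 and 201 and *Cx3cr1* at 181 and 171. *Pf4* was at 314 and 394 CPM and *Cd74* at 18349 and 10836. The paired plot shows stromal genes against fibroblasts on the left and macrophage genes against stromal-low cells on the right, with the C1q genes of the rule as its last lines. No gene drawn there reaches a ratio of 1, but *Mertk*, left out for its level in fibroblasts (21.4 and 72.1 CPM), had 2.76 and 0.737.

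**Figure D5:**
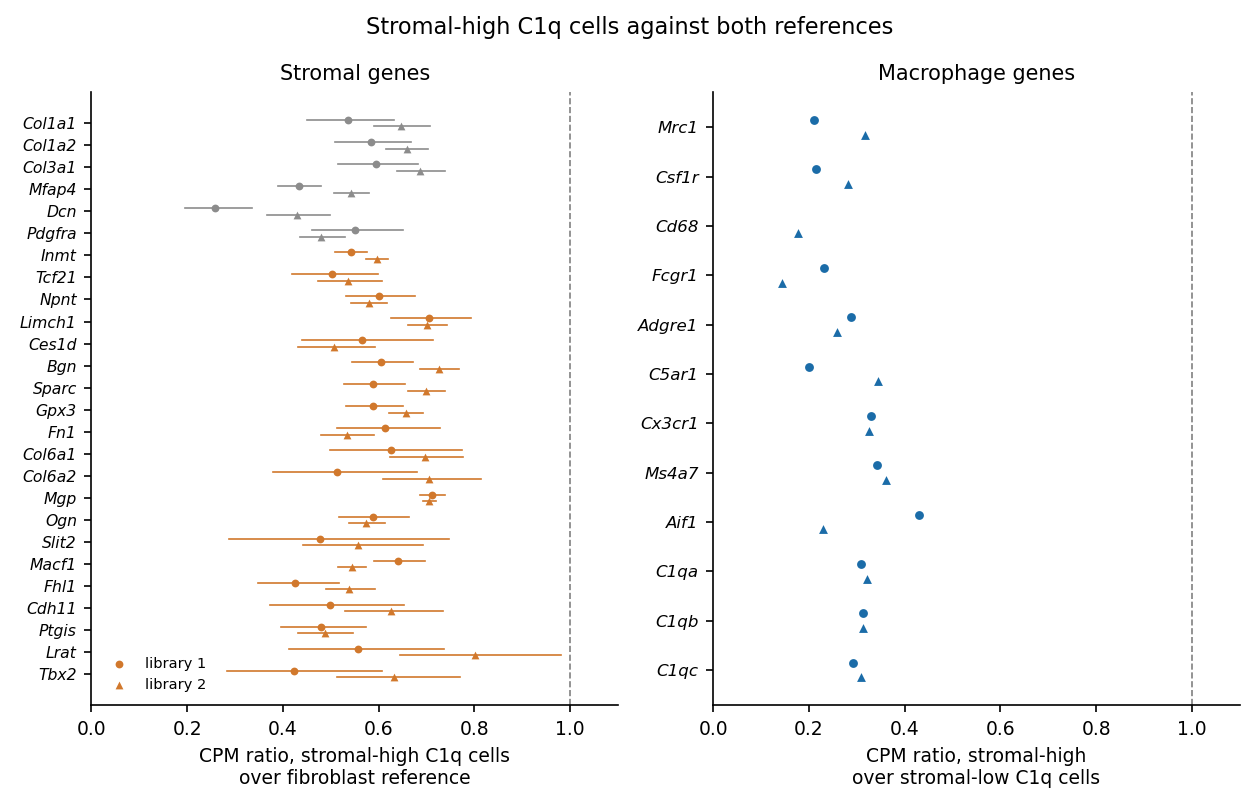
Left, CPM of stromal genes in stromal-high C1q cells over the fibroblast reference, with 95% counting intervals; the 6 genes of the split are grey. Right, CPM of macrophage genes under 5 CPM in fibroblasts and at least 50 CPM in stromal-low cells, in stromal-high over stromal-low C1q cells. Circles are library 1 and triangles library 2.

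Some genes did not follow either scale. In the stromal-high cells *C3* was at 731 and 850 CPM, beside 42.2 and 35 in stromal-low cells and 575 and 917 in fibroblasts, so library 1 exceeded its fibroblast level. *Mmp12* was at 340 and 175 CPM beside 229 and 217 in stromal-low cells, and *Ccr2* at 137 and 138 beside 187 and 147, so these 2 genes of the MHC-high kind stood nearer to their stromal-low level, while *Cx3cr1* of the same list did not. *Cxcl13* was at 0 and 15 CPM beside 1000 and 210. Over all 4997 genes 619 were higher (12.4%) and 366 lower (7.32%) in stromal-high than in stromal-low cells, 985 in all (19.7%), with 12 of 13 macrophage markers lower and 20 of 20 further stromal genes higher. Since the split used that contrast, nothing is read from these counts, which were 286 and 201 with DESeq2 and 464 and 127 without the block; with no stromal limit on the comparators 654 were lower.

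Depth moved with the split. Stromal-high cells had 10130 and 15869 UMIs at the median against 3690 and 6679 in stromal-low cells and 4265 and 7668 in fibroblasts, and 3025 and 4143 genes. Their mitochondrial share was 1.22% and 2.17%, beside 1.19% and 2.02%. No tool for finding barcodes with more than 1 cell was run, and whether these barcodes held 1 cell or more, or took up transcripts of other cells, was not tested.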

How the data were processed

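The deposited files hold UMI counts per gene and barcode, which the authors made with Cell Ranger 5.0.1 and mm10, for 9669 and 10050 barcodes and 32285 genes, with medians of 4480 and 7578 UMIs per kept cell. The members and lists were chosen with earlier results of these data known. UMIs were summed per library and cell group into 8 sums (65 stromal-low cells hold 165953 and 143033 UMIs) and fitted with edgeR 4.0.16 in R 4.3.3 (TMM, filterByExpr, quasi-likelihood F test, library as a block, 3 residual degrees of freedom). Benjamini-Hochberg adjustment ran over 5016 genes, with 0.05 as the threshold, and the gate genes were then left out of all counts. Standard errors are the log2 fold change over the square root of F. Named genes are members of 26 fixed lists, or among the 10 genes with the largest change per direction in a comparison, or the 5 with the largest ratio between libraries. Folds are ratios of mean CPM, and "at least" takes 3 counts over a group at 0. Intervals are 95% exact binomial or Poisson intervals. No doublet caller was run. DESeq2 1.42.0 and other thresholds were tried as alternatives. Python 3.11.15, numpy 2.4.6, pandas 2.3.3, scipy 1.17.1 and matplotlib 3.10.9 were used.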

Additional observations from a re-analysis of the deposited data

How the results depend on the processing

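Only 2 libraries of 1 condition were available, 65 and 70 cells carry the results, and low UMI numbers limit genes under about 18.1 CPM (3 UMIs in the stromal-low cells of library 1). Leaving out each library in turn gave 64 to 71 C1q cells (0.641% to 0.737%) and 21 to 44 stromal-low cells (0.210% to 0.457%). Without the library block, which pairs the sums of a library, the counts of genes higher and lower were 235 and 202 against monocytes, 156 and 77 against the dendritic gate, and 464 and 127 for stromal-high against stromal-low cells. With DESeq2 they were 268 and 179, 198 and 121, and 286 and 201. With no stromal limit on the comparators they were 506 and 620 against the dendritic gate, and 654 genes were lower in stromal-high cells. At a split of 0.2% 133 were lower than in the dendritic gate. The cause was not tested. Against monocytes *Ier2* reversed without replicate 2 and ranged from -0.19 to 1.40 (log2) over the libraries left out in turn. Against the dendritic gate *C3* reversed at a split of 0.2% (log2 -1.14) and with no stromal limit (log2 -3.32), as did *Egr1* (-0.00232), *Jun* (-0.153), *Gas6* (-0.496) and *Ctsl* (-0.604, and -0.166 against monocytes) with no stromal limit and *Ighm* (1.61) without lymphoid cells in that gate. Of listed calls, DESeq2 lost 24 of 116 against monocytes, 26 of 101 against the dendritic gate and 36 of 114 between the kinds of C1q cell, and leaving out the block lost 28, 29 and 41. The planned comparisons with alveolar macrophages and between stromal-low cells with and without resident-gene UMIs were not run, for want of 10 cells in a library.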
